A study of Mus musculus with 9 samples.

Results

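The segments of the T cell receptor beta locus were examined in RNA sequencing of mouse splenic T cells. Members were the rows of a gene count table whose Ensembl identifier maps in GENCODE M21 to a Trbv, Trbd, Trbj or Trbc symbol with a T cell receptor V, D, J or C gene type. This gave 38 of 29229 rows, made up of 21 variable (Trbv), 2 diversity (Trbd), 13 joining (Trbj) and 2 constant (Trbc) segments. The annotation holds 39 such genes, and the remaining gene, Trbv4, was not analysed here. No measured value entered the choice of members.

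Allogeneic libraries (n = 3) came from CByJ.SJL(B6)-Ptprca/J recipients, which are H-2d and CD45.1+. These mice had received 8 Gy of irradiation, 5000000 T-cell-depleted bone marrow cells and 1000000 splenic T cells. Syngeneic libraries (n = 3) came from B6.SJL-Ptprca Pepcb/BoyJ recipients, which are H-2b and CD45.1+ and had received 9.5 Gy, 5000000 such marrow cells and 8500000 T cells. Naive libraries (n = 3) held T cells of C57BL/6 mice of 8 to 12 weeks without a transplant. The sources used here do not give whether naive libraries pool animals, and p-values measure the spread between these libraries. The donors of both transplant groups were C57BL/6 (CD45.2+), donors and recipients were females of 8 to 12 weeks, and each transplant library pooled 2 to 4 recipients at day 7. All 9 libraries were enriched for T cells and sorted as live CD3+ CD45.2+ cells, a gate that also admits T cells grown from the donor marrow. Recipient strain, MHC, irradiation and T cell dose differ together between the transplant groups and cannot be told apart.

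As background, a developing alpha-beta T cell cuts and rejoins this locus with the RAG recombinase, first a D to a J segment and then a V segment to that join. The finished beta chain mRNA therefore carries a single V segment, with its J segment spliced to a constant segment. The V segment encodes the germline loops that mainly touch the MHC molecule, and the V-D-J join encodes CDR3, the loop that mainly reads the peptide. Trbd1 and the Trbj1 cluster lie before Trbc1, and Trbd2 and the Trbj2 cluster before Trbc2. A V segment share in bulk RNA is a population summary, in which more cells with a segment and more receptor mRNA per cell cannot be told apart, and which counts no clones.

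The locus spans chr6:40891229-41558452 of GRCm38 from Trbv1 to Trbv31, the V segment that lies after Trbc2 on the opposite strand. Sequences below are from the GENCODE M21 transcripts, each 5′ to 3′ and from the plus strand. The D segments, Trbd1 at chr6:41533201-41533212 and Trbd2 at chr6:41542163-41542176, are shown whole because they are the germline core of CDR3 and are far shorter than the other segments.
Trbd1: gggacagggggc
Trbd2: gggactgggggggc

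Trbd1 has 12 bases and Trbd2 has 14, and both are mostly G, with a longest run of 5 G in Trbd1 and 7 G in Trbd2. Trbj2-1 at chr6:41542754-41542803 and Trbj2-7 at chr6:41543810-41543856, the ends of the second J cluster, are shown because their balance differed between the groups. Capitals mark the motif that closes CDR3 and encodes phenylalanine, glycine, any residue and glycine (TTC or TTT, then GGN, NNN and GGN).
Trbj2-1: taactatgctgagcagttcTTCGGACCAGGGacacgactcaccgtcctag
Trbj2-7: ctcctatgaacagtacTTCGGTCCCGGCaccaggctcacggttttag

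The motif was found in 11 of 13 Trbj segments, which are 45 to 54 bases long, and its letters were absent from Trbj1-6 and Trbj1-7. The last 48 bases of a V segment hold the codon of the conserved cysteine that opens CDR3, marked in capitals. They are shown for Trbv26 (chr6:41227505-41227993), Trbv23 (chr6:41216073-41216526) and Trbv29 (chr6:41271394-41271881), which were higher in allogeneic libraries. Trbv13-2 (chr6:41121396-41121832) and Trbv13-3 (chr6:41130147-41130585) are shown as near relatives that differed in their shares. Trbv13-2 had a lower share in all allogeneic libraries, while Trbv13-3 stood out as high in allogeneic library 2 only.
Trbv26: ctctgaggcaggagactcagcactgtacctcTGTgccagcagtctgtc
Trbv23: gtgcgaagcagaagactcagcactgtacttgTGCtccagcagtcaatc
Trbv29: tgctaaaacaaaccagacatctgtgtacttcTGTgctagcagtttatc
Trbv13-2: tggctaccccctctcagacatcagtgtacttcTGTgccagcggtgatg
Trbv13-3: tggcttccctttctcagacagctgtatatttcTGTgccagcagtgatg

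Over their whole transcripts Trbv26 and Trbv23 were 73.6% identical, the nearest relatives of each other, while Trbv29 was at most 61.2% identical to any other member. Trbv13-2 and Trbv13-3 were 90.6% identical and shared 1 stretch of 50 bases, the only such stretch among the Trbv members. Trbc1 and Trbc2 shared 283 stretches of 50 bases, which are 61.1% of those in Trbc1 and 44.0% of those in Trbc2, so that reads can be split between them in ways the counting decides. Trbv5 lies within a long noncoding RNA, 5830405F06Rik, on the same strand, and its counts are uncertain. The sources used here do not give how a read that spans a V, a J and a C row was counted.

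The libraries held 103953932 to 176678189 counts, of which 22104 to 50387 fell on Trbv, 1780 to 7819 on Trbj, 130 to 384 on Trbd and 38198 to 80443 on Trbc members. All 38 members passed the filter on low counts. Levels are given as CPM, that is counts scaled to library size after TMM adjustment. The T cell markers (Cd3e, Cd3d, Cd3g, Cd2, Cd5, Thy1 and Lck) summed to 4171 to 4520 CPM in allogeneic, 2704 to 3655 CPM in syngeneic and 3551 to 4166 CPM in naive libraries, none of them at 0. Erythroid markers (Hbb-bs, Hba-a1, Alas2, Slc4a1 and Klf1) summed to 10.7 to 29.9 CPM in allogeneic, 1847 to 4285 CPM in syngeneic and 1.15 to 1.37 CPM in naive libraries, none of them at 0. Neutrophil markers summed to 281 to 490, 219 to 678 and 1.14 to 4.61 CPM in allogeneic, syngeneic and naive libraries, and macrophage and monocyte markers to 205 to 268, 312 to 397 and 82.9 to 91.0 CPM. In naive libraries Ly6c2 made up most of the macrophage and monocyte sum, with a mean of 84.0 CPM. Csf1r, Adgre1, Cd68, Lyz2 and Fcgr1 each had a naive mean of at most 3.03 CPM. Only Cd68 had a higher mean in allogeneic (23.0 CPM) than in syngeneic libraries (8.46 CPM). B cell markers summed to 12.7 to 15.1 CPM in allogeneic, 16.4 to 18.7 CPM in syngeneic and 11.2 to 14.1 CPM in naive libraries. NK cell markers summed to 122 to 144 CPM in allogeneic, 172 to 206 CPM in syngeneic and 78.8 to 81.1 CPM in naive libraries, without overlap. Eomes was the largest part, with means of 68.2, 160 and 55.7 CPM in allogeneic, syngeneic and naive libraries. The markers did not move together. Eomes and Klra8 had lower means in allogeneic than in syngeneic libraries. Klrb1c (31.1 against 6.46 CPM), Klrd1 (34.4 against 22.9 CPM) and Ncr1 (1.74 against 0.626 CPM) had higher ones. The part of these cells in the levels below was not tested, and shares within a segment class do not take other genes into account.

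Summed Trbv reads stood at 276 ± 27.1 CPM in allogeneic, 220 ± 34.2 CPM in syngeneic and 358 ± 37.7 CPM in naive libraries (mean ± SD, n = 3 each). Means of summed Trbc reads followed the same order, with 486 ± 50.02, 378 ± 57.4 and 575 ± 58.3 CPM in allogeneic, syngeneic and naive libraries. Those of summed Trbj reads did not, with 21.03 ± 3.76 CPM in allogeneic, 27.8 ± 0.129 CPM in syngeneic and 52.3 ± 3.67 CPM in naive libraries. Allogeneic and syngeneic libraries overlapped in the Trbv sum (lowest allogeneic 255.3, highest syngeneic 259.1 CPM) and in the Trbc sum (443.9 and 444.3 CPM). In the Trbc sum allogeneic and naive libraries overlapped as well. Per 100 Trbc reads there were 56.6, 59.8 and 54.0 Trbv reads in the allogeneic libraries, 58.3, 57.8 and 58.2 in the syngeneic and 62.6, 61.7 and 62.2 in the naive libraries. Both transplant groups lay below the naive libraries in this ratio and overlapped each other.

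Allogeneic against syngeneic libraries is the comparison of donor T cells in an MHC-mismatched host with those in a matched host. Trbv26, Trbv23 and Trbv29 were higher in allogeneic libraries, whether scaled over all genes, to Trbv reads or to reads of the CD3 genes. They are known by the older names V-beta 3 (Trbv26), 20 (Trbv23) and 7 (Trbv29), and each encodes the variable domain of a beta chain. Trbv26 held 3.45, 3.66 and 3.58% in the allogeneic libraries, 1.28, 1.497 and 0.932% in the syngeneic libraries and 1.28, 1.51 and 1.43% in the naive libraries, as a share of all Trbv reads. All 3 allogeneic values lay above the 6 other values, which overlapped each other. The share was 2.88 times that of syngeneic libraries, and the level differed by a log2 fold change of 1.85 ± 0.21 (SE, edgeR adjusted p = 3.31e-05). Here and below, edgeR adjusted p is the Benjamini-Hochberg value of edgeR's quasi-likelihood test over all 19609 genes tested, in a model of 9 libraries.

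Trbv23, a scarce segment, held 0.652, 0.873 and 0.755% in the allogeneic libraries, 0.281, 0.348 and 0.333% in the syngeneic libraries and 0.369, 0.342 and 0.436% in the naive libraries. Again no allogeneic value overlapped the others, and syngeneic and naive values overlapped (allogeneic against syngeneic, log2 fold change 1.58 ± 0.23, edgeR adjusted p = 0.00021). Trbv29 held 8.59, 6.79 and 10.3% in the allogeneic libraries, 5.36, 5.26 and 5.30% in the syngeneic libraries and 4.43, 3.88 and 4.00% in the naive libraries, the order being allogeneic above syngeneic above naive without overlap. Its level differed between allogeneic and syngeneic libraries by 1.01 ± 0.17, edgeR adjusted p = 0.00072, and allogeneic library 2 was the lowest of the 3. With library size set to the Trbv total, so that the fit tests the share itself, Trbv26 was higher by 1.53 ± 0.20, edgeR adjusted p = 0.000185, Trbv23 by 1.25 ± 0.25, edgeR adjusted p = 0.00254 and Trbv29 by 0.69 ± 0.16, edgeR adjusted p = 0.00532.

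**Figure D1:**
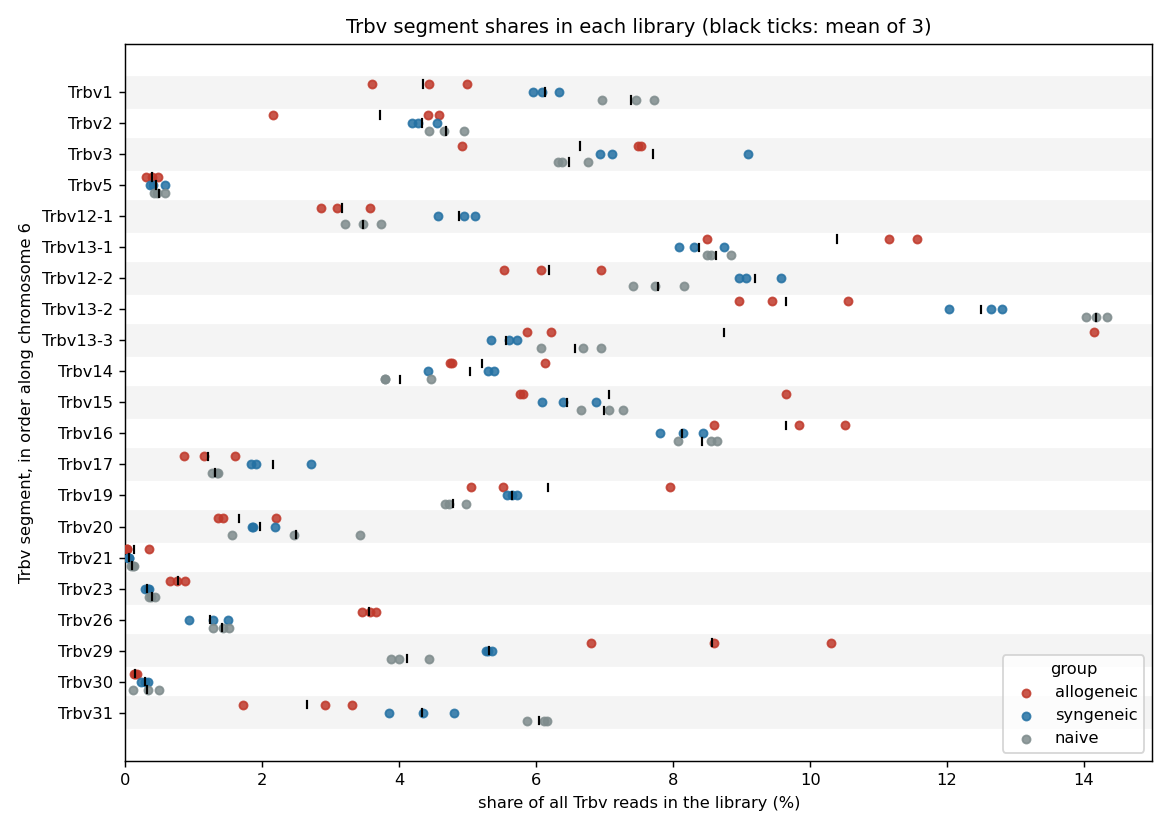
Share of each Trbv segment in all Trbv reads of a library (x axis, percent) for the 21 segments in order along chromosome 6 (y axis), with allogeneic libraries in red, syngeneic in blue and naive in grey, 1 point a library and a black tick at the mean of 3. Trbv26, Trbv23 and Trbv29 have all red points to the right of the others, Trbv13-2, Trbv1 and Trbv31 have them to the left, and a single red point at 14.1% stands apart for Trbv13-3.

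Over all members, 8 of 38 (21.1%) were called higher and 4 (10.5%) lower in allogeneic than in syngeneic libraries at an edgeR adjusted p under 0.05. Among all genes tested 24.3% were higher and 20.7% lower, or 45% either way, against 31.6% of the members either way. When single libraries were left out, the members called higher ranged from 5 (without syngeneic library 2) to 12 (without syngeneic library 1). The split depended on the scaling. It was 3 higher and 13 lower with library size set to Trbv reads, and 3 higher and 21 lower with library size set to reads of Cd3d, Cd3e, Cd3g and Cd247. These scalings moved the median log2 fold change of all genes by -0.34 and -0.57. The 3 called higher under each of them were Trbv26, Trbv23 and Trbv29.

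The members called higher over all genes were 6 Trbv segments, Trbj2-1 and Trbc2. Besides the 3 above, the V segments were Trbv13-1 (log2 fold change 0.62 ± 0.14, edgeR adjusted p = 0.00333), Trbv16 (0.59 ± 0.14, edgeR adjusted p = 0.00517) and Trbv13-3 (0.97 ± 0.27, edgeR adjusted p = 0.0141), known as V-beta 8.3, 11 and 8.1. None of these was called under either other scaling. Trbv13-1 held 8.49, 11.6 and 11.1% in the allogeneic libraries, 8.74, 8.30 and 8.09% in the syngeneic libraries and 8.49, 8.84 and 8.55% in the naive libraries, with allogeneic library 1 among the syngeneic values and level with the lowest naive value. Trbv16 held 10.5, 8.60 and 9.84% in the allogeneic libraries, 7.81, 8.14 and 8.43% in the syngeneic libraries and 8.64, 8.55 and 8.07% in the naive libraries, with allogeneic values above the syngeneic ones but overlapping the naive ones.

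Allogeneic library 2 stood apart in several V segments. Trbv13-3 held 6.22, 14.1 and 5.87% in the allogeneic libraries, 5.60, 5.34 and 5.72% in the syngeneic libraries and 6.94, 6.68 and 6.07% in the naive libraries. The value of allogeneic library 2 was 2.34 times the mean of the other allogeneic libraries, which lay above the syngeneic values, library 1 within the naive range and library 3 below it. Without that library the log2 fold change against syngeneic libraries was 0.49 (edgeR adjusted p = 0.0336), and without syngeneic library 2 it was 0.86 (edgeR adjusted p = 0.0558). Trbv15, known as V-beta 12, held 5.76, 9.64 and 5.81% in the allogeneic libraries, 6.87, 6.39 and 6.09% in the syngeneic libraries and 7.06, 6.66 and 7.26% in the naive libraries, so that allogeneic library 2 was highest while the other allogeneic libraries were lowest. Its level was not called (log2 fold change 0.44 ± 0.21, edgeR adjusted p = 0.103), and was called without syngeneic library 1, at 0.64 (edgeR adjusted p = 0.0248), or without allogeneic library 3, at 0.56 (edgeR adjusted p = 0.049).

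Trbv21, a rare segment known as V-beta 19, had 8, 162 and 8 reads in the allogeneic libraries, 13, 11 and 13 reads in the syngeneic libraries and 60, 42 and 35 reads in the naive libraries. In allogeneic library 2 its share was 12.7 times the mean of the other 2 allogeneic libraries, whose counts were the lowest of all 9. The log2 fold change against syngeneic libraries was 1.75 ± 0.82, edgeR adjusted p = 0.102, and it turned to -0.51 (edgeR adjusted p = 0.379) without library 2. Without allogeneic library 1 it was 2.21 (edgeR adjusted p = 0.0372) and without allogeneic library 3 2.16 (edgeR adjusted p = 0.044). Trbv19, known as V-beta 6, was highest in allogeneic library 1, with 7.95, 5.04 and 5.52% in the allogeneic libraries, 5.64, 5.57 and 5.72% in the syngeneic libraries and 4.73, 4.97 and 4.66% in the naive libraries.

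**Figure D2:**
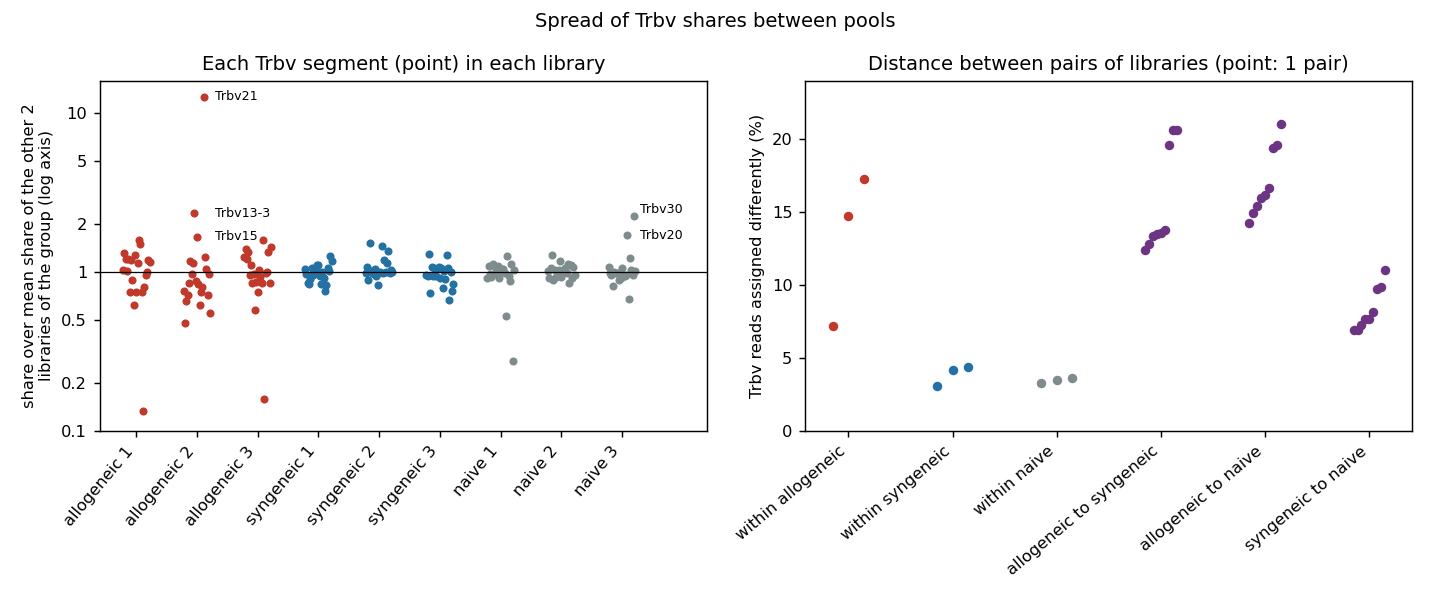
Left, the share of each Trbv segment in a library over the mean share in the other 2 libraries of its group (log axis, 1 point a segment), where Trbv21 at 12.7, Trbv13-3 and Trbv15 stand out in allogeneic library 2 and Trbv30 and Trbv20 in naive library 3. Right, the percent of Trbv reads assigned differently between pairs of libraries, 1 point a pair, reaching 17.3% within the allogeneic group against at most 4.39% within the syngeneic and 3.60% within the naive group.

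Several of the more abundant V segments held a smaller share in allogeneic libraries. Trbv13-2 (V-beta 8.2), with 8.96, 10.5 and 9.45% in the allogeneic libraries, 12.6, 12.8 and 12.0% in the syngeneic libraries and 14.3, 14.2 and 14.0% in the naive libraries, was the top segment of all syngeneic and naive libraries and of no allogeneic one. The top segments there were Trbv16 in library 1, Trbv13-3 in library 2 and Trbv13-1 in library 3. Trbv31 (V-beta 14) held 2.91, 1.72 and 3.31% in the allogeneic libraries, 4.80, 4.35 and 3.84% in the syngeneic libraries and 6.16, 5.86 and 6.12% in the naive libraries. Trbv1 (V-beta 2) held 4.44, 3.60 and 4.99% in the allogeneic libraries, 6.34, 6.09 and 5.95% in the syngeneic libraries and 6.96, 7.46 and 7.73% in the naive libraries. For Trbv13-2, Trbv31 and Trbv1 the order was allogeneic below syngeneic below naive, without overlap.

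Trbv12-1 held 3.57, 2.85 and 3.08% in the allogeneic libraries, 4.56, 4.94 and 5.11% in the syngeneic libraries and 3.73, 3.21 and 3.47% in the naive libraries. Its neighbour Trbv12-2 held 6.94, 6.07 and 5.53% in the allogeneic libraries, 8.96, 9.07 and 9.57% in the syngeneic libraries and 8.16, 7.42 and 7.74% in the naive libraries. These relatives, 87.4% identical and known as V-beta 5.2 and 5.1, were both highest in the syngeneic libraries and lower in the allogeneic ones without overlap. The level over all genes was not called between allogeneic and syngeneic libraries for Trbv13-2 (-0.05 ± 0.13), Trbv31 (-0.40 ± 0.25), Trbv1 (-0.18 ± 0.17), Trbv12-1 (-0.28 ± 0.17) or Trbv12-2 (-0.23 ± 0.16). Without allogeneic library 1 it was called for Trbv12-1, at -0.46 (edgeR adjusted p = 0.0359), and Trbv12-2, at -0.41 (edgeR adjusted p = 0.0462). In the fit scaled to Trbv reads all of them were lower, with Trbv12-1 at -0.62 ± 0.15, edgeR adjusted p = 0.00652 and Trbv12-2 at -0.57 ± 0.12, edgeR adjusted p = 0.00359. Trbv13-2 was at -0.37 ± 0.10, edgeR adjusted p = 0.0154, Trbv31 at -0.71 ± 0.21, edgeR adjusted p = 0.0219 and Trbv1 at -0.50 ± 0.14, edgeR adjusted p = 0.0165. Trbv17 (V-beta 9) was the remaining segment called lower in that fit (-0.84 ± 0.25, edgeR adjusted p = 0.0227).

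By this ratio 3 V segments were higher and 6 lower between allogeneic and syngeneic libraries, where 9.47% of all genes were higher and 31.2% lower in the same fit. The shares of 5 of 21 V segments (23.8%) lay wholly above and those of 7 (33.3%) wholly below the syngeneic shares. Ratios to Trbv reads lay wholly above for 12.6% and wholly below for 37.8% of all genes. Each segment without overlap has an exact 2-sided permutation p of 0.1 for its share, the smallest that 3 against 3 libraries allow. Shares within a class add to a fixed total, so that a higher share of some segments lowers the others.

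As background, I-E is a class II MHC molecule that H-2d mice make and H-2b mice lack, and on I-E the superantigens of endogenous mammary tumour viruses are known to engage V-beta 3, 5.1, 5.2, 11 and 12. The segments of these families, Trbv26, Trbv12-2, Trbv12-1, Trbv16 and Trbv15, did not move together. Against syngeneic libraries the shares of Trbv26 and Trbv16 lay wholly above, those of Trbv12-1 and Trbv12-2 wholly below, and that of Trbv15 overlapped. Their summed share was 30.2, 30.8 and 27.8% in the allogeneic libraries, 29.5, 30.0 and 30.1% in the syngeneic libraries and 28.9, 27.3 and 28.0% in the naive libraries. The allogeneic sums overlapped both other groups. The engagement of these segments by a superantigen was not measured.

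Against naive libraries, allogeneic libraries were higher for the same 3 V segments and lower for many others. The log2 fold change of Trbv26 was 0.97 ± 0.20, edgeR adjusted p = 0.00156, that of Trbv29 was 0.68 ± 0.17, edgeR adjusted p = 0.00557 and that of Trbv23 was 0.60 ± 0.22, edgeR adjusted p = 0.0365. The call of Trbv23 was lost without either of naive libraries 1 and 2, syngeneic libraries 2 and 3 or allogeneic libraries 2 and 3, with edgeR adjusted p of 0.0513 to 0.129, and also with no filter on low counts (edgeR adjusted p = 0.0643). Trbv31 was lower, at -1.57 ± 0.25, edgeR adjusted p = 0.000248, Trbv1 at -1.14 ± 0.17, edgeR adjusted p = 0.000141 and Trbv13-2 at -0.93 ± 0.13, edgeR adjusted p = 7.07e-05. In the fit scaled to Trbv reads the same 3 were higher, with Trbv26 at 1.34 ± 0.20, edgeR adjusted p = 0.000148, and 4 were lower, namely Trbv1, Trbv12-2, Trbv13-2 and Trbv31, where 42.6% of all genes were higher and 11.4% lower.

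Members called higher were 3 of 38 (7.89%) and lower 22 (57.9%) in allogeneic against naive libraries, beside 31.8% and 25.9% of all genes, or 57.7% either way. The median log2 fold change over the members was -0.70, and over all genes it was -0.01. Shares of 5 V segments lay wholly above and those of 4 (19.0%) wholly below the naive shares, where ratios to Trbv reads did so for 46.5% and 15.2% of all genes. The 5 were Trbv26, Trbv29, Trbv23, Trbv14 and Trbv19. Trbv14 (V-beta 13) held 6.12, 4.77 and 4.74% in the allogeneic libraries, 5.38, 4.42 and 5.30% in the syngeneic libraries and 3.78, 4.46 and 3.79% in the naive libraries.

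Syngeneic against naive libraries compares donor T cells in a matched irradiated host with T cells of mice without a transplant, and here 29 of 38 members (76.3%) were lower and none higher. Among all genes 19.5% were lower and 22.4% higher, or 41.9% either way, and the median log2 fold change was -0.83 over the members and 0.01 over all genes. The calls depended on the scaling. With library size set to Trbv reads 2 members were called, both higher, and with CD3 gene reads 1 was higher and 2 were lower. By construction such scalings remove a fall that all Trbv or CD3 gene reads share, so they cannot tell whether the members fell together. Those scalings moved the median of all genes by 0.71 and 0.65. At an unadjusted p under 0.05 the count of members, in either direction, was 32, and DESeq2 called 30, all of them lower. Without syngeneic library 3 the count of calls was 19. Erythroid markers, of which 5 of 5 were higher in syngeneic than in naive libraries, summed to 1847, 4285 and 3719.7 CPM in syngeneic libraries 1, 2 and 3, whose Trbv reads summed to 259, 199.6 and 200.3 CPM. Their part in the lower levels was not tested.

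Trbv31 was lower in syngeneic than in naive libraries, at -1.17 ± 0.25, edgeR adjusted p = 0.00278, Trbv1 at -0.97 ± 0.17, edgeR adjusted p = 0.000789 and Trbv13-2 at -0.88 ± 0.13, edgeR adjusted p = 0.000198. Trbv26 was at -0.88 ± 0.20, edgeR adjusted p = 0.00474 and Trbv23 at -0.98 ± 0.23, edgeR adjusted p = 0.00465, and their shares overlapped between these groups. Trbv29 was not called (-0.33 ± 0.17, edgeR adjusted p = 0.149), except without syngeneic library 1, at -0.48 (edgeR adjusted p = 0.0467). Scaled to Trbv reads, Trbv12-1 (0.49 ± 0.14, edgeR adjusted p = 0.0127) and Trbv17 (0.71 ± 0.25, edgeR adjusted p = 0.0308) were higher and no V segment was lower, where 57.6% of all genes were higher and 2.21% lower. Shares of 6 V segments (28.6%) lay wholly above and of 5 (23.8%) wholly below the naive shares, where ratios to Trbv reads did so for 61.7% and 4.16% of all genes.

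Naive libraries were close to each other except for Trbv20 and Trbv30. Trbv20 (V-beta 15) held 1.36, 1.42 and 2.204% in the allogeneic libraries, 1.86, 2.19 and 1.84% in the syngeneic libraries and 1.56, 2.46 and 3.43% in the naive libraries. Trbv30 (V-beta 18) held 0.162, 0.143 and 0.131% in the allogeneic libraries, 0.322, 0.285 and 0.230% in the syngeneic libraries and 0.113, 0.329 and 0.496% in the naive libraries. Among the naive libraries both were lowest in library 1 and highest in library 3. The level of Trbv20 was lower in syngeneic than in naive libraries, at -1.07 ± 0.29, edgeR adjusted p = 0.0111, which was -0.65 (edgeR adjusted p = 0.0501) without naive library 3 and -0.97 (edgeR adjusted p = 0.0501) without syngeneic library 3. Against naive libraries Trbv20 was lower in allogeneic libraries, at -0.99 ± 0.29, edgeR adjusted p = 0.0113, which was -0.57 (edgeR adjusted p = 0.0573) without naive library 3. Trbv30 was lower in allogeneic libraries, at -1.49 ± 0.48, edgeR adjusted p = 0.0204, which was -0.84 (edgeR adjusted p = 0.122) without it, -1.44 (edgeR adjusted p = 0.0602) without allogeneic library 2 and -1.44 (edgeR adjusted p = 0.0592) without allogeneic library 3.

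**Figure D3:**
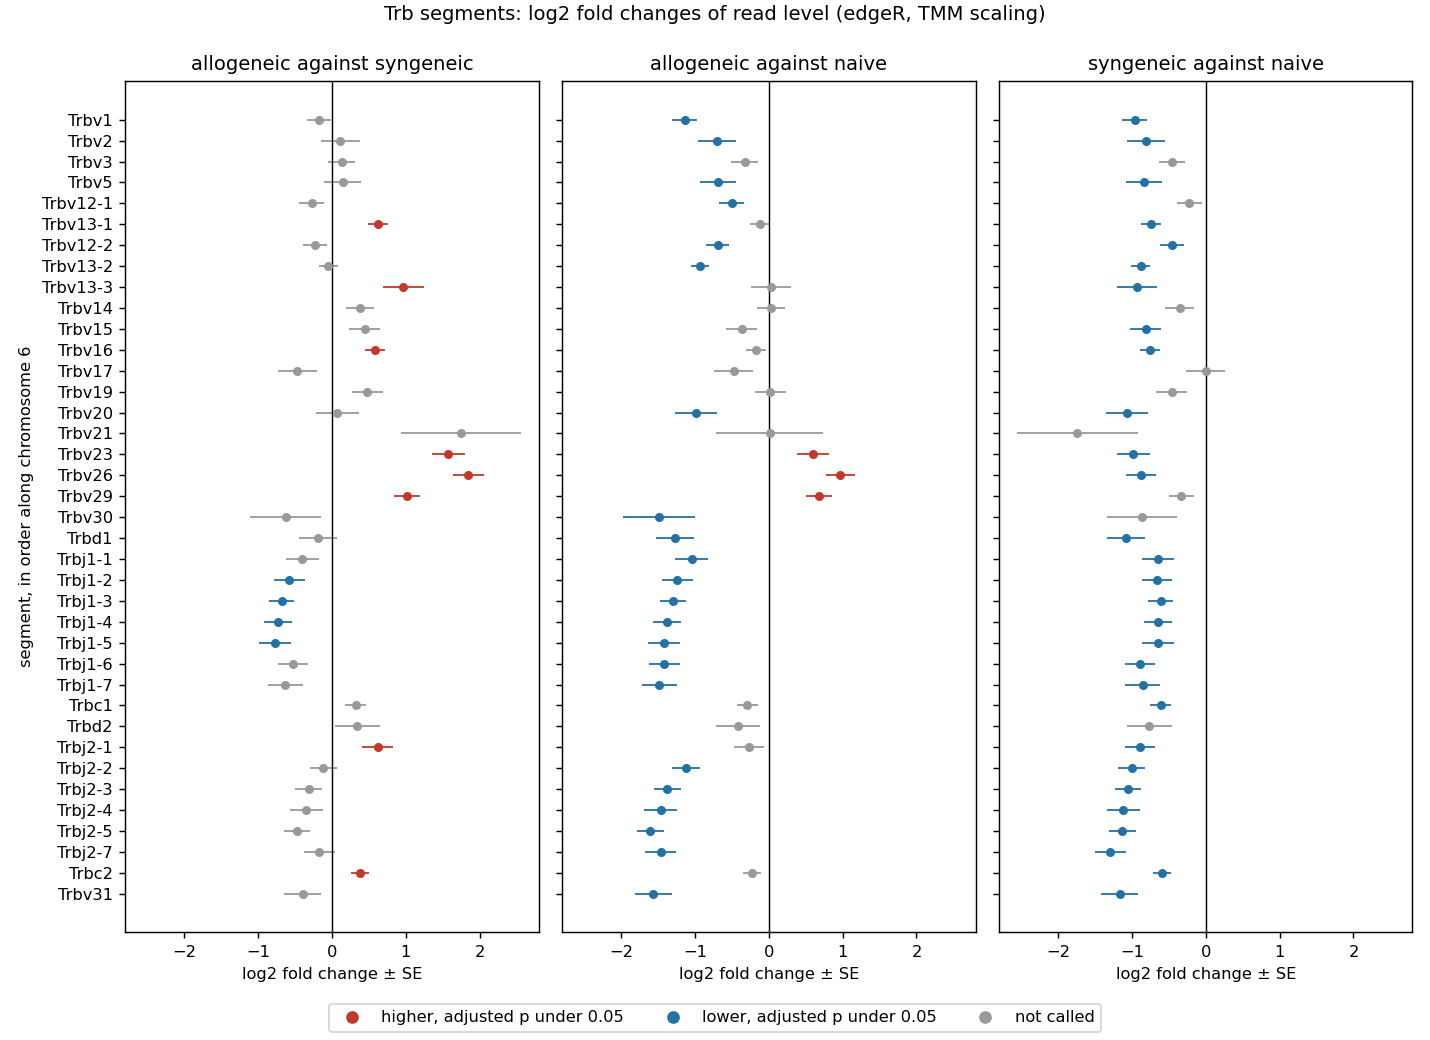
Log2 fold change with its SE (x axis) for all 38 segments in order along chromosome 6 (y axis) in the 3 comparisons, scaled by TMM over all genes, red for higher and blue for lower at an edgeR adjusted p under 0.05 and grey for not called. Trbv26, Trbv23 and Trbv29 are red in both allogeneic panels, and most segments lie left of 0 in both panels against naive libraries. Scaling to Trbv or CD3 gene reads, not shown, gave 2 and 3 calls between syngeneic and naive libraries. By construction it removes a shift that all those reads share.

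Levels of different V segments were ordered by reads per base of exon, taken as a share of all Trbv members. In naive libraries Trbv13-2 led with 16.2 ± 0.197%, ahead of Trbv13-1 with 9.14 ± 0.196% and Trbv16 with 8.21 ± 0.307% (mean ± SD, n = 3). Syngeneic libraries had Trbv13-2 first with 14.3 ± 0.439%, then Trbv12-2 with 9.31 ± 0.351% and Trbv13-1 with 8.91 ± 0.335%, the last 2 differing by little more than their SD. In allogeneic libraries Trbv13-1 with 10.9 ± 1.61%, Trbv13-2 with 10.9 ± 0.714%, Trbv13-3 with 9.86 ± 5.08%, Trbv29 with 9.38 ± 2.03% and Trbv16 with 9.36 ± 1.10% did not differ beyond their spread. Trbv21 and Trbv30 had the lowest means in all groups by this measure, each at most 0.362%. Trbv30 and Trbv23 did not differ beyond their spread in naive (0.362 ± 0.222% and 0.427 ± 0.0539%) or syngeneic libraries (0.324 ± 0.0537% and 0.360 ± 0.0397%).

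The breadth of V use per library overlapped between the 3 groups. The effective number of segments, the exponential of the Shannon entropy of the shares, was 15.9, 14.6 and 15.8 in the allogeneic libraries, 15.8, 16.1 and 15.5 in the syngeneic libraries and 15.3, 15.6 and 15.7 in the naive libraries, of 21 segments. Allogeneic library 2 was the lowest of the 9. The leading 3 segments together held 28.1, 36.2 and 31.3% of Trbv reads in the allogeneic libraries, 30.3, 30.2 and 30.7% in the syngeneic libraries and 31.5, 31.6 and 30.6% in the naive libraries. These values summarise segments, and diversity within a segment was not measured.

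Allogeneic pools lay farther from each other than syngeneic or naive libraries did. The share of Trbv reads assigned differently between a pair of libraries, summed over segments, was 7.23 to 17.3% within the allogeneic, 3.05 to 4.39% within the syngeneic and 3.27 to 3.60% within the naive group (3 pairs each). The lowest allogeneic value was that of libraries 1 and 3, the pair without library 2. Between groups it was 12.4 to 20.7% for allogeneic to syngeneic, 14.2 to 21.1% for allogeneic to naive and 6.94 to 11.04% for syngeneic to naive pairs. All distances of the allogeneic to the other groups lay above those within the syngeneic and naive groups, and overlapped those within the allogeneic group.

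Of the remaining V segments with a mean share of at least 5%, Trbv3 (V-beta 16) held 7.49, 4.91 and 7.53% in the allogeneic libraries, 6.93, 7.11 and 9.09% in the syngeneic libraries and 6.38, 6.75 and 6.32% in the naive libraries. Its allogeneic values overlapped both other groups, and it was not called over all genes. Of the scarcer segments, Trbv2 held 4.24% of Trbv reads as a mean over the 9 libraries, Trbv5 held 0.440% and Trbv17 held 1.56%.

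Spread between pools was also set beside that of other genes. The median coefficient of variation of CPM over the Trbv segments was 21.6% in allogeneic, 16.6% in syngeneic and 12.7% in naive libraries. Over all genes tested the medians were 15.2, 13.6 and 11.1% in allogeneic, syngeneic and naive libraries, and over genes above 1 CPM they were 11.2, 9.68 and 7.72%. The largest value of a segment was 136% in allogeneic libraries, where allogeneic library 2 held most reads of Trbv21.

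Among the J segments, which encode the end of CDR3 and the last strand of the variable domain, 4 of 7 Trbj1 segments were lower and Trbj2-1 higher in allogeneic than in syngeneic libraries, where 20.7% of all genes were lower and 24.3% higher. Trbj1-5 held 6.63, 8.22 and 7.88% in the allogeneic libraries, 9.49, 10.97 and 9.27% in the syngeneic libraries and 8.45, 8.56 and 7.81% in the naive libraries, as a share of all Trbj reads. The allogeneic values lay below the syngeneic ones and overlapped the naive ones. Levels of Trbj1-2 (-0.58 ± 0.21, edgeR adjusted p = 0.0404), Trbj1-3 (-0.68 ± 0.17, edgeR adjusted p = 0.00835), Trbj1-4 (-0.73 ± 0.19, edgeR adjusted p = 0.00946) and Trbj1-5 (-0.77 ± 0.22, edgeR adjusted p = 0.014) were lower, and these were the 4 members called lower in this comparison. The call of Trbj1-2 was lost without naive library 1 or 3, any syngeneic library, or allogeneic library 1 or 2, with edgeR adjusted p up to 0.109.

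Trbj2-1, the first segment of the second cluster, held 14.5, 7.56 and 9.46% in the allogeneic libraries, 5.57, 4.52 and 4.81% in the syngeneic libraries and 4.48, 4.71 and 5.55% in the naive libraries. All allogeneic values lay above the other 6, library 1 by the most, and syngeneic and naive values overlapped. Its level was 2.42, 1.74 and 2.22 CPM in the allogeneic libraries, 1.56, 1.26 and 1.33 CPM in the syngeneic libraries and 2.49, 2.28 and 2.94 CPM in the naive libraries. The log2 fold change against syngeneic libraries was 0.62 ± 0.21, edgeR adjusted p = 0.0302, a call that was lost on leaving out allogeneic library 1 (edgeR adjusted p = 0.079) or 3 (0.0886), or syngeneic library 2 (0.107) or 3 (0.0858). Against naive libraries it was -0.28 ± 0.20, edgeR adjusted p = 0.262 in allogeneic and -0.89 ± 0.21, edgeR adjusted p = 0.0047 in syngeneic libraries. Scaled to Trbv reads it was not called in any of the 3 comparisons, at 0.29 ± 0.21, edgeR adjusted p = 0.301 for allogeneic against syngeneic libraries.

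At the other end of the cluster Trbj2-7 held 10.7, 13.5 and 13.1% in the allogeneic libraries, 10.4, 11.1 and 10.8% in the syngeneic libraries and 14.4, 14.2 and 13.5% in the naive libraries, the naive and syngeneic values not overlapping. Its level was lower in syngeneic than in naive libraries, at -1.29 ± 0.21, edgeR adjusted p = 0.000454 and in allogeneic than in naive libraries, at -1.47 ± 0.21, edgeR adjusted p = 0.000107. The ratio of Trbj2-7 to Trbj2-1 reads was 0.736, 1.79 and 1.38 in the allogeneic libraries, 1.86, 2.45 and 2.25 in the syngeneic libraries and 3.22, 3.00 and 2.43 in the naive libraries. Values were lowest in allogeneic and highest in naive libraries, and only naive library 3 and syngeneic library 2 overlapped across neighbouring groups. In all 3 naive libraries reads increased from each Trbj2 member to the next along the chromosome, with a rank correlation of 1 over 6 segments. The pseudogene Trbj2-6, which is not a member, had 812, 611 and 661 reads in the naive libraries. In all 9 libraries its count lay between those of Trbj2-5 and Trbj2-7. How much of the Trbj reads came from RNA that encodes a beta chain was not measured. The rank correlation was 1, 1 and 0.943 in the syngeneic libraries and -0.232, 0.771 and 0.371 in the allogeneic libraries, each a description of 6 segments that share a library.

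**Figure D4:**
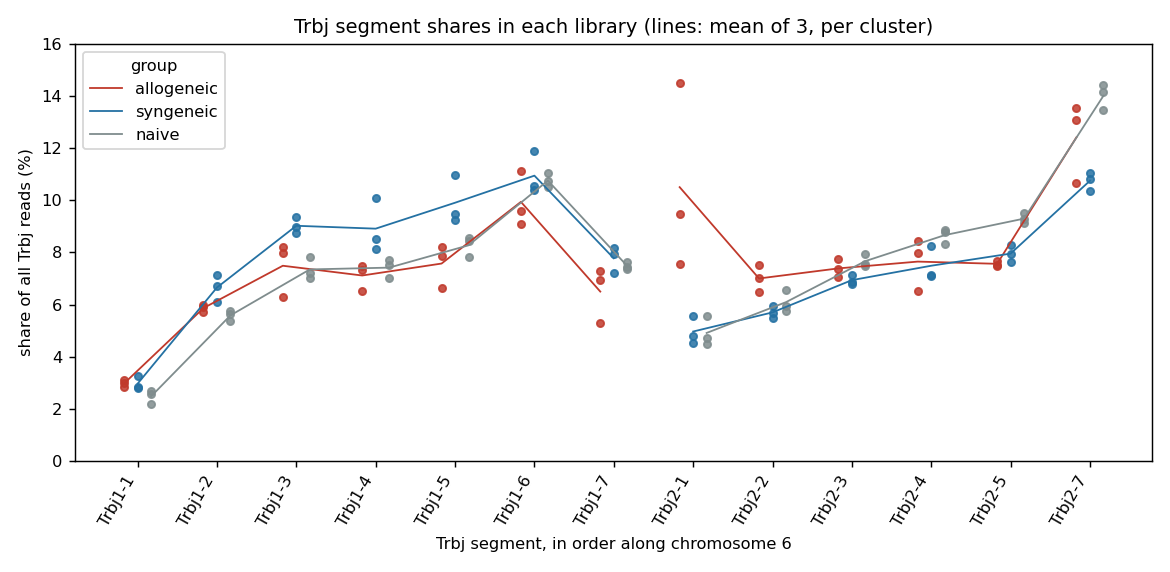
Share of each Trbj segment in all Trbj reads of a library (y axis, percent) in order along chromosome 6 (x axis), with allogeneic libraries in red, syngeneic in blue and naive in grey, 1 point a library and lines through the means of 3 within each cluster. Trbj2-1 is highest in the 3 allogeneic libraries, at 7.56 to 14.5%, and Trbj1-2 to Trbj1-5 have their highest means in the syngeneic ones.

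The other J segments of at least 5% mean share were Trbj1-2 to Trbj1-4, Trbj1-6 and Trbj1-7 in the first cluster and Trbj2-2 to Trbj2-5 in the second. Trbj1-2 held 5.73, 5.89 and 5.98% in the allogeneic libraries, 7.15, 6.70 and 6.11% in the syngeneic libraries and 5.76, 5.35 and 5.65% in the naive libraries. Trbj1-3 held 8.20, 7.98 and 6.29% in the allogeneic libraries, 9.35, 8.98 and 8.75% in the syngeneic libraries and 7.20, 7.81 and 7.03% in the naive libraries. Trbj1-4 held 7.47, 7.35 and 6.53% in the allogeneic libraries, 8.53, 10.1 and 8.13% in the syngeneic libraries and 7.72, 7.02 and 7.51% in the naive libraries. For each of these the allogeneic values lay below the syngeneic ones without overlap. Trbj1-6 held 9.10, 9.60 and 11.1% in the allogeneic libraries, 10.4, 10.5 and 11.9% in the syngeneic libraries and 11.04, 10.5 and 10.7% in the naive libraries. Trbj1-7 held 5.28, 6.93 and 7.28% in the allogeneic libraries, 8.17, 7.22 and 7.93% in the syngeneic libraries and 7.43, 7.36 and 7.65% in the naive libraries. In both, allogeneic and syngeneic values overlapped.

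Trbj2-2, next to Trbj2-1, held 7.53, 6.47 and 7.01% in the allogeneic libraries, 5.95, 5.47 and 5.69% in the syngeneic libraries and 5.77, 5.96 and 6.56% in the naive libraries. Its allogeneic values lay above the syngeneic ones without overlap. Trbj2-3 held 7.75, 7.37 and 7.05% in the allogeneic libraries, 6.80, 6.87 and 7.15% in the syngeneic libraries and 7.95, 7.57 and 7.48% in the naive libraries. Trbj2-4 held 6.52, 8.44 and 8.00% in the allogeneic libraries, 7.09, 7.13 and 8.26% in the syngeneic libraries and 8.33, 8.80 and 8.87% in the naive libraries. Trbj2-5 held 7.53, 7.68 and 7.48% in the allogeneic libraries, 8.29, 7.65 and 7.93% in the syngeneic libraries and 9.27, 9.50 and 9.13% in the naive libraries. In these 3 the allogeneic and syngeneic values overlapped. Trbj1-1 was the smallest J segment, with 2.81% as a mean over the 9 libraries.

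The Trbj2 cluster as a whole held 52.5 ± 1.77% of Trbj reads in allogeneic, 43.8 ± 1.01% in syngeneic and 50.7 ± 0.425% in naive libraries. Syngeneic libraries were thus the lower ones, and allogeneic values of 51.1 to 54.5% overlapped the naive values of 50.2 to 51.1%. Between allogeneic and syngeneic libraries the shares of 2 of 13 J segments (15.4%) lay wholly above, Trbj2-1 and Trbj2-2, and 4 (30.8%) wholly below, Trbj1-2 to Trbj1-5. Ratios to Trbj reads did so for 45.8% and 11.8% of all genes. Between allogeneic and naive libraries 2 lay above and 2 below (75.5% and 4.4% of all genes), and between syngeneic and naive libraries 5 above and 4 below (75.4% and 2.62%).

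Joining segments were also scarcer relative to the constant segments in both transplant groups than in naive libraries. Per 100 Trbc reads there were 3.08, 5.17 and 4.96 Trbj reads in the allogeneic libraries, 6.29, 8.03 and 8.05 in the syngeneic libraries and 9.72, 9.35 and 8.34 in the naive libraries. The 3 groups did not overlap, and allogeneic library 1 was the lowest. Of 13 Trbj members, all but Trbj2-1 were lower in allogeneic than in naive libraries, and all 13 were lower in syngeneic than in naive libraries, where 25.9% and 19.5% of all genes were lower in these comparisons. The steepest was Trbj2-5, which was lower in allogeneic than in naive libraries, at -1.61 ± 0.18, edgeR adjusted p = 1.9e-05. Scaled to Trbv reads, 11 of 13 remained lower in allogeneic than in naive libraries (all but Trbj1-1 and Trbj2-1), beside 11.4% of all genes in that fit, while the 2 calls between syngeneic and naive libraries were V segments.

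The D segments had few reads, and whether these came from joined or from germline segments was not measured. Trbd1 had 92, 121 and 100 reads in the allogeneic libraries, 149, 89 and 87 reads in the syngeneic libraries and 240, 227 and 268 reads in the naive libraries. Trbd2 had 62, 139 and 67 reads in the allogeneic libraries, 89, 41 and 51 reads in the syngeneic libraries and 144, 87 and 103 reads in the naive libraries. Trbd1 made up 59.7, 46.5 and 59.9% in the allogeneic libraries, 62.6, 68.5 and 63.0% in the syngeneic libraries and 62.5, 72.3 and 72.2% in the naive libraries, as a share of both D segments. Allogeneic values lay below all others, with allogeneic library 2 the lowest, and syngeneic and naive values overlapped. The difference was -9.32 percentage points for allogeneic minus syngeneic and -13.6 for allogeneic minus naive libraries (exact 2-sided permutation p = 0.1 for each, the smallest possible), and -4.31 for syngeneic minus naive libraries (exact p = 0.4).

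Per 1000 Trbc reads the D segments had 2.67, 3.26 and 3.28 reads in the allogeneic libraries, 4.39, 3.40 and 3.61 in the syngeneic libraries and 4.77, 5.09 and 5.11 in the naive libraries, the 3 groups not overlapping. The level of Trbd1 was lower than in naive libraries, at -1.28 ± 0.26, edgeR adjusted p = 0.00122 in allogeneic and -1.08 ± 0.25, edgeR adjusted p = 0.0052 in syngeneic libraries. Trbd1 and Trbd2 were not called between allogeneic and syngeneic libraries (Trbd1 -0.19 ± 0.26, edgeR adjusted p = 0.555 and Trbd2 0.34 ± 0.30, edgeR adjusted p = 0.371).

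The constant segments, which encode the membrane-proximal domain, transmembrane helix and tail of the chain, showed no detectable difference in balance between the groups. Trbc2 held 74.7, 75.3 and 78.5% in the allogeneic libraries, 75.2, 75.1 and 76.2% in the syngeneic libraries and 76.1, 75.3 and 74.6% in the naive libraries of Trbc reads. The values overlapped, and the exact 2-sided permutation p was 0.8 for allogeneic against syngeneic (76.2 ± 2.03% and 75.5 ± 0.595%), 0.6 for allogeneic against naive and 0.8 for syngeneic against naive libraries (75.3 ± 0.739%). The differences were 0.674, 0.852 and 0.179 percentage points in that order, and 3 against 3 libraries cannot go below an exact p of 0.1. Divided by exonic length, Trbc2 held 77.6, 76.9 and 76.7% in allogeneic, syngeneic and naive libraries.

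As levels, Trbc2 stood at 404, 334 and 371 CPM in the allogeneic libraries, 334, 259.5 and 262 CPM in the syngeneic libraries and 436, 389.5 and 473 CPM in the naive libraries. It was higher in allogeneic than in syngeneic libraries by 0.37 ± 0.12, edgeR adjusted p = 0.0266, and Trbc1 was not called, at 0.32 ± 0.14, edgeR adjusted p = 0.0832, except without syngeneic library 1, at 0.47 (edgeR adjusted p = 0.0142). With library size set to CD3 gene reads the sign turned, to -0.18 for Trbc2 and -0.23 for Trbc1, and Trbc2 lost its call without allogeneic library 1 or 3 or syngeneic library 2 or 3 (edgeR adjusted p of 0.0792 to 0.119). Against naive libraries Trbc2 was lower in syngeneic libraries, at -0.60 ± 0.12, edgeR adjusted p = 0.00213 and Trbc1 at -0.61 ± 0.14, edgeR adjusted p = 0.00469. In allogeneic libraries neither was called (Trbc2 -0.23 ± 0.12, edgeR adjusted p = 0.129 and Trbc1 -0.29 ± 0.14, edgeR adjusted p = 0.0974), except Trbc1 without allogeneic library 1, at -0.42 (edgeR adjusted p = 0.0265). Both were above 0 for syngeneic against naive libraries when scaled to Trbv or CD3 gene reads, at 0.02 to 0.10.

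Genes of the partner chains were described beside the members. Of Trac, Cd3d, Cd3e, Cd3g and Cd247, the alpha chain constant gene and the signalling subunits of the receptor, 4 of 5 were higher in allogeneic than in syngeneic libraries (median log2 fold change 0.50), beside 24.3% of all genes. Trac was the member not called (0.25 ± 0.12, edgeR adjusted p = 0.0938), and Cd3e was at 0.61 ± 0.12, edgeR adjusted p = 0.00144. Between allogeneic and naive libraries edgeR called 0 of 5 (median -0.11), with 0 at an unadjusted p under 0.05 and 0 by DESeq2. All 5 were lower in syngeneic than in naive libraries (median -0.62), beside 19.5% of all genes. The constant genes of the gamma-delta receptor, Trdc, Tcrg-C1, Tcrg-C2 and Tcrg-C4, summed to 12.8 to 19.0 CPM in allogeneic, 21.2 to 24.2 CPM in syngeneic and 59.3 to 67.2 CPM in naive libraries. Of these 1 was higher (Tcrg-C2) and 2 were lower in allogeneic than in syngeneic libraries, with Trdc at -2.28 ± 0.16, edgeR adjusted p = 1.03e-06.

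Genes of recombination and of the pre-T cell receptor were at low levels. Dntt, which encodes the terminal transferase that adds untemplated bases at the V-D-J joins, stood at 0.0938, 0.0668 and 0.121 CPM in the allogeneic libraries, 4.03, 5.15 and 5.00 CPM in the syngeneic libraries and 5.98, 6.38 and 7.47 CPM in the naive libraries. It was lowest in the allogeneic libraries, by -5.69 ± 0.25, edgeR adjusted p = 4.59e-08 on the log2 scale against syngeneic libraries. Rag1, a subunit of the recombinase, was at 0 in all allogeneic libraries, at 0.197, 0.244 and 0.919 CPM in the syngeneic libraries and at most 0.00839 CPM in the naive libraries. Of Rag1, Rag2, Dntt and Ptcra, 2 (Rag1 and Dntt) were lower in allogeneic than in syngeneic libraries, 2 (Dntt and Ptcra) were lower in allogeneic than in naive libraries, and 1, Rag1, was higher in syngeneic than in naive libraries.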

How the data were processed

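Raw read counts per gene were deposited by the authors in 1 table of 29229 genes and 9 libraries. Per the submitters' processing notes, FastQC 0.11.3, TopHat2 2.0.13, Bowtie2 2.2.1 and HTSeq 0.6.1 were used with GRCm38. Per the labels' protocols, libraries were made from 100 ng of total RNA with a stranded, ribosomal RNA-depleting kit. The sources used here do not give the strand setting of the counting, the treatment of reads that match several genes or the annotation release.

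Of the identifiers, 29014 matched GENCODE M21. Counts were tested on the whole table with edgeR 4.0.16 (R 4.3.3; filterByExpr, TMM, quasi-likelihood F test, 9 libraries in 1 model of 3 groups, 19609 genes tested), tested on simulated data. Shares are counts of a segment over those of its class in a library; per-length values divide by exonic length. Means and SD are over 3 libraries, and single shares were compared with exact 2-sided permutation tests (scipy 1.17.1). No interval is given for single counts, whose precision covers counting error only. Alternatives were DESeq2 1.42.0, its size factors, no filter, scaling to Trbv or CD3 gene reads, a replicate block, leaving out each library, thinning to 22104 Trbv reads, pseudogenes in the denominator, and per-length counts. No libraries were duplicates.

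Members given in every library were all Trbd and Trbc segments, Trbv and Trbj segments of at least 5% mean share, the 4 Trbv segments that differed most between allogeneic and syngeneic libraries, and 5 of superantigen families. Trbv14, Trbv20, Trbv30 and Trbv31 were added after their values were seen. Members and gene lists were chosen with earlier results of these data known. A further marker of the erythroid list is not reported here.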

Additional observations from a re-analysis of the deposited data

How the results depend on the processing

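Between allogeneic and syngeneic libraries 12 of 38 segments were called, and 8 to 15 when single libraries were left out. Between allogeneic and naive libraries 25 were called, and 20 to 29 without single libraries. Between syngeneic and naive libraries 29 were called, and 19 to 31 without single libraries. DESeq2 called 15, 25 and 30 in these comparisons. Scaling to CD3 gene reads gave 24 calls between allogeneic and syngeneic libraries and 3 between syngeneic and naive libraries, where scaling to Trbv reads gave 2. By construction such a scaling removes a change that all Trbv or CD3 gene reads share.

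Labels give the groups the same replicate numbers and do not say what a number marks. Deviations from the group mean had correlations of -0.118 to 0.265 between libraries with the same number. Between libraries with different numbers they were -0.252 to 0.185. With 3 libraries a group this cannot show whether a litter, day or batch was shared. A fit with the replicate number as a block called 11, 25 and 31 segments in the 3 comparisons. Among the fits printed above, the block ended the calls of Trbv23 between allogeneic and naive libraries (edgeR adjusted p = 0.0507) and of Trbj1-2 between allogeneic and syngeneic libraries (0.0605).

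Several log2 fold changes reversed. Allogeneic against syngeneic, scaling to CD3 gene reads gave -0.083 for Trbv15, -0.23 for Trbc1, -0.18 for Trbc2 and -0.16 for Trbd2, and scaling to Trbv reads gave -0.0092 for Trbc1. Without single libraries Trbv21 ranged from -0.51 (without allogeneic library 2) to 2.21, Trbv13-2 from -0.13 to 0.10 (without syngeneic library 1) and Trbd1 from -0.33 to 0.049 (without syngeneic library 1); the cause was not tested. Allogeneic against naive, scaling to Trbv reads gave 0.10 for Trbj2-1, 0.078 for Trbc1 and 0.15 for Trbc2. Syngeneic against naive, scaling to Trbv and to CD3 gene reads gave 0.37 and 0.30 for Trbv29, 0.087 and 0.021 for Trbc1, 0.10 and 0.035 for Trbc2, and 0.49 and 0.42 for Trbv12-1.

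The inverse Simpson index gave 13.6, 14.2 and 13.6 effective V segments in allogeneic, syngeneic and naive libraries, where entropy gave 15.4, 15.8 and 15.5. Per exonic length, entropy gave 15.5 in syngeneic and 15.2 in naive libraries, the Trbc2 share was 76.9% in syngeneic and 76.7% in naive libraries, and the Trbj2 share was 51.4% in naive libraries. V segments without overlap between allogeneic and syngeneic libraries numbered 12, and 11 to 14 under all alternatives run. Trbd segments, at 130 to 384 reads a library, and Trbv21 are limited by depth, and 3 libraries a group limit all shares.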
